A study of Mus musculus with 7 samples.

Results

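Interferon-stimulated genes are the genes that cells switch on when an interferon binds its receptor. The set described here holds 37 of them, chosen by gene name as textbook interferon targets of the mouse, and all 37 were found among the 32544 genes of the deposited table. They were measured in 7 libraries of whole abdominal aorta, 3 from an ITA-LNP group and 4 from a control-LNP group. The mice were male Apoe-/- animals on a high fat diet for 12 weeks, and the loss of apolipoprotein E makes such mice prone to atherosclerosis. Both groups received lipid nanoparticles (LNP) by vein every week at 50 mg/kg, so neither group stands for an untreated mouse. The series title names itaconate, a metabolite of activated macrophages, while the labels give no account of what the control particles carry. No label ties a library to its own mouse, so p-values here measure the spread between libraries, which may be technical.

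Type I interferons (the alpha and beta forms) and type III interferons signal through the kinases JAK1 and TYK2 to a factor complex that includes STAT2 and IRF9 and binds the interferon-stimulated response element (ISRE) in promoters. Type II interferon (gamma) signals through JAK1 and JAK2 to factors that bind the gamma-activated site (GAS). The products of the induced genes sense viral nucleic acid, degrade RNA, block viral entry and replication, and feed back on the pathway. In atherosclerosis, interferon-induced genes are known from leukocytes of the blood and the plaque as well as from cells of the vessel wall.

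The tissue label was checked against marker genes before the comparison was made, and the groups differed in it. Levels are reads per 1000000 assigned reads (CPM), and reads come from the 3' end of each transcript, so gene length does not enter them. The 9 smooth muscle markers had a summed level of 17006 to 20867 CPM with ITA-LNP but of 435 to 616 CPM in the control-LNP libraries. The 8 fibroblast markers summed to 19033 to 22107 CPM against 123 to 292 CPM, and the white adipocyte genes Adipoq and Cidec were at 0 in all 4 control-LNP libraries. Platelet markers ran the other way, with 137 to 203 CPM against 10204 to 14622 CPM over 10 genes. The control-LNP libraries therefore go against their aorta label, and tissue makeup and treatment cannot be told apart in any result below. In addition, control-LNP replicate 2 stood apart from its group: its correlation across genes with the other 3 was 0.61 to 0.62, where those 3 reached 0.933 to 0.949 among themselves. Each result is given with and without it where the difference matters. Depth ran from 5077073 to 7281721 reads per library, and a gene at 0 reads could still have held up to 3 reads, or 0.412 to 0.591 CPM (a limit for counting error alone, as duplicates from PCR were not removed as far as the sources say).

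The promoters of the set show the letters that the interferon factors bind, and some are printed here because they describe the set without using any level. RefSeq promoter windows on GRCm38.p6, from 250 bases before to 50 bases after the transcription start, were matched for 26 of the 37 genes. The ISRE core was searched as GAAANNGAAA on both strands, so that it appears in some lines below as its reverse complement, with runs of T. It was found in 15 of the 26 (57.7%), against 3.99% of 27025 genes in the same table, a gene being counted where the window of any of its starts held a match. In 14 of them (53.8%) a match lay wholly before the start, against 3.46% of all genes. The sequences below run 5' to 3' on the strand of the gene, with 20 bases on each side of the match where the window allows and the core in capitals.
Isg15, ISRE core, chr4:156200855-156200916, minus strand: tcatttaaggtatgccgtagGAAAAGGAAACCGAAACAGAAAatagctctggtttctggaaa
Ifit1, ISRE core, chr19:34640765-34640833, plus strand: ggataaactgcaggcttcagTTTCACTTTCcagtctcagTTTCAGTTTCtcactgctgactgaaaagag
Ifit3, ISRE core, chr19:34583353-34583436, plus strand: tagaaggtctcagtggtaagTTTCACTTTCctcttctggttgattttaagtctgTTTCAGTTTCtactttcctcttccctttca
Oas3, ISRE core, chr5:120777705-120777754, minus strand: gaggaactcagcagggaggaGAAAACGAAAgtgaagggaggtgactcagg
Rsad2, ISRE core, chr12:26456543-26456592, minus strand: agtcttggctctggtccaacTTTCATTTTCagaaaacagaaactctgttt
Stat2, ISRE core, chr10:128270256-128270305, plus strand: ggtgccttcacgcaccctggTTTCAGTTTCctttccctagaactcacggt
Trim30a, ISRE core, chr7:104465200-104465249, minus strand: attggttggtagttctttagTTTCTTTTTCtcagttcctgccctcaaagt
Gbp2, ISRE core, chr3:142620584-142620633, plus strand: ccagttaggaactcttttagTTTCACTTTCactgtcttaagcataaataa
Irgm1, ISRE core, chr11:48871421-48871470, minus strand: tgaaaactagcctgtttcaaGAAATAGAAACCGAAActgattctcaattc
Igtp, ISRE core, chr11:58199502-58199551, plus strand: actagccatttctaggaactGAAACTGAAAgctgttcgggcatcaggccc

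Isg15 carries 3 overlapping matches in 1 run, and Ifit1 and Ifit3 carry 2 separate ones each. Trim30a, the gene with the smallest p in the comparison below, has 2 annotated starts, with the printed core at bases -36 to -27 of 1 and another core at bases 3 to 12 of the other. The 11 genes without a match in this window were Irf1, Irf7, Irf9, Ifit2, Oasl1, Oasl2, Isg20, Dtx3l, Ifi44, Ifi35 and Xaf1. A match is a string of letters and not a measured binding site, and its absence speaks only for this window.

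The GAS core was searched as TTCNNNGAA, which reads the same on both strands and can share its GAA letters with an ISRE core. It occurred in 8 of the 26 windows (30.8%), against 9.55% of all genes. These were Irf1, Ifit2, Oas1a, Bst2, Isg20, Gbp7, Igtp and Ifi35. Irf1, Ifit2, Isg20 and Ifi35 have a GAS core but no ISRE core in the window. The GAS cores of Irf1 and Isg20 are shown because both were called lower with ITA-LNP. Unlike the search, this choice used levels. Ifit2 and Ifi35, with log2 fold changes of 0.88 and -2.32, were not called. Whether a GAS core goes with a fall was not tested.
Irf1, GAS core, chr11:53769904-53769952, plus strand: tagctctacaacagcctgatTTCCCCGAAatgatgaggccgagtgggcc
Isg20, GAS core, chr7:78913331-78913379, plus strand: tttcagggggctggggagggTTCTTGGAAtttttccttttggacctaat

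**Figure D1:**
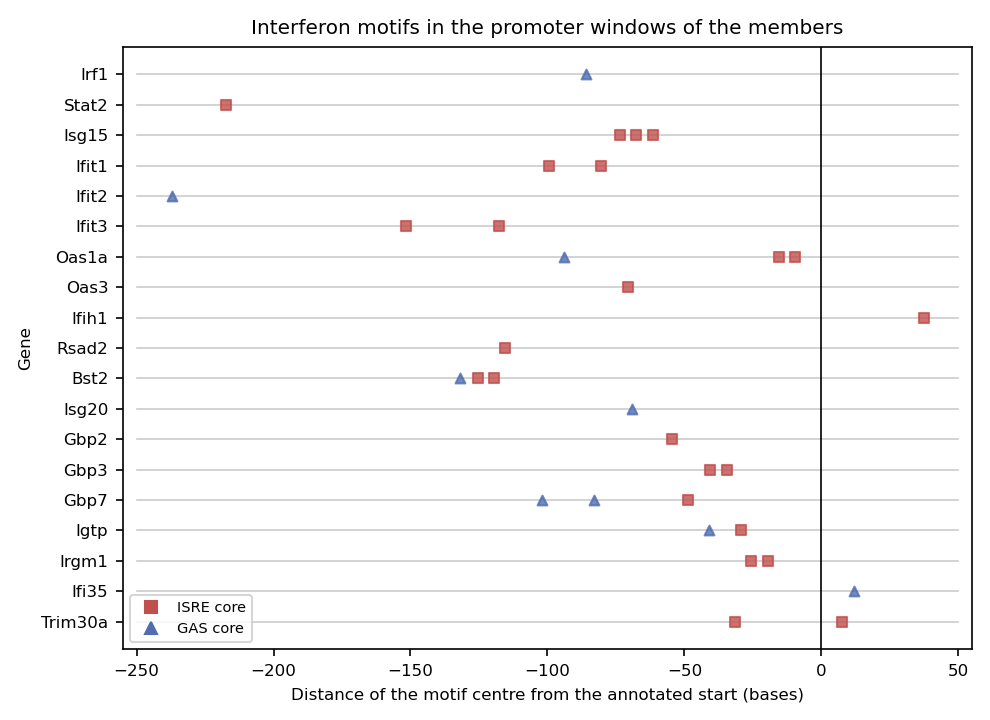
Positions of ISRE and GAS cores in the promoter windows of the matched genes, as distance in bases from the transcription start (x axis), with 1 row per gene. The 15 genes with an ISRE core and the 8 with a GAS core mostly carry them before the start.

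Across the whole set, the interferon-stimulated genes were mostly lower with ITA-LNP, but few passed the test. In limma on log2(CPM + 1), with p-values adjusted over 12636 genes and a threshold of 0.05, 5 of the 37 fell (13.5%) and none rose. Of all genes tested, 5.15% were called lower and 10.3% higher. The 5 were Trim30a, Ifi27l2a, Isg20, Mx2 and Irf1. A further 24 had a negative and 8 a positive log2 fold change that did not pass. Of all genes tested, 46.4% had a negative value. The median over the set was -1.87, beside 0.15 over all genes. At an unadjusted p under 0.05 there were 18 members, all lower, beside 29.3% of all genes in both directions together. The summed level of the 37 genes was 727, 868 and 740 CPM in the ITA-LNP libraries and 4293, 3317, 1689 and 1525 CPM in the control-LNP libraries. Every control-LNP sum lay above every ITA-LNP sum, and the means were 778 ± 78.0 (SD, n = 3) and 2706 ± 1332 CPM (SD, n = 4). The ratio of these means was 3.48 (3.22 without control-LNP replicate 2), and 2.71 without the 3 most abundant members Rsad2, Ifi27l2a and Trim30a. In whole tissue, fewer cells of a type and less RNA per cell cannot be told apart.

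**Figure D2:**
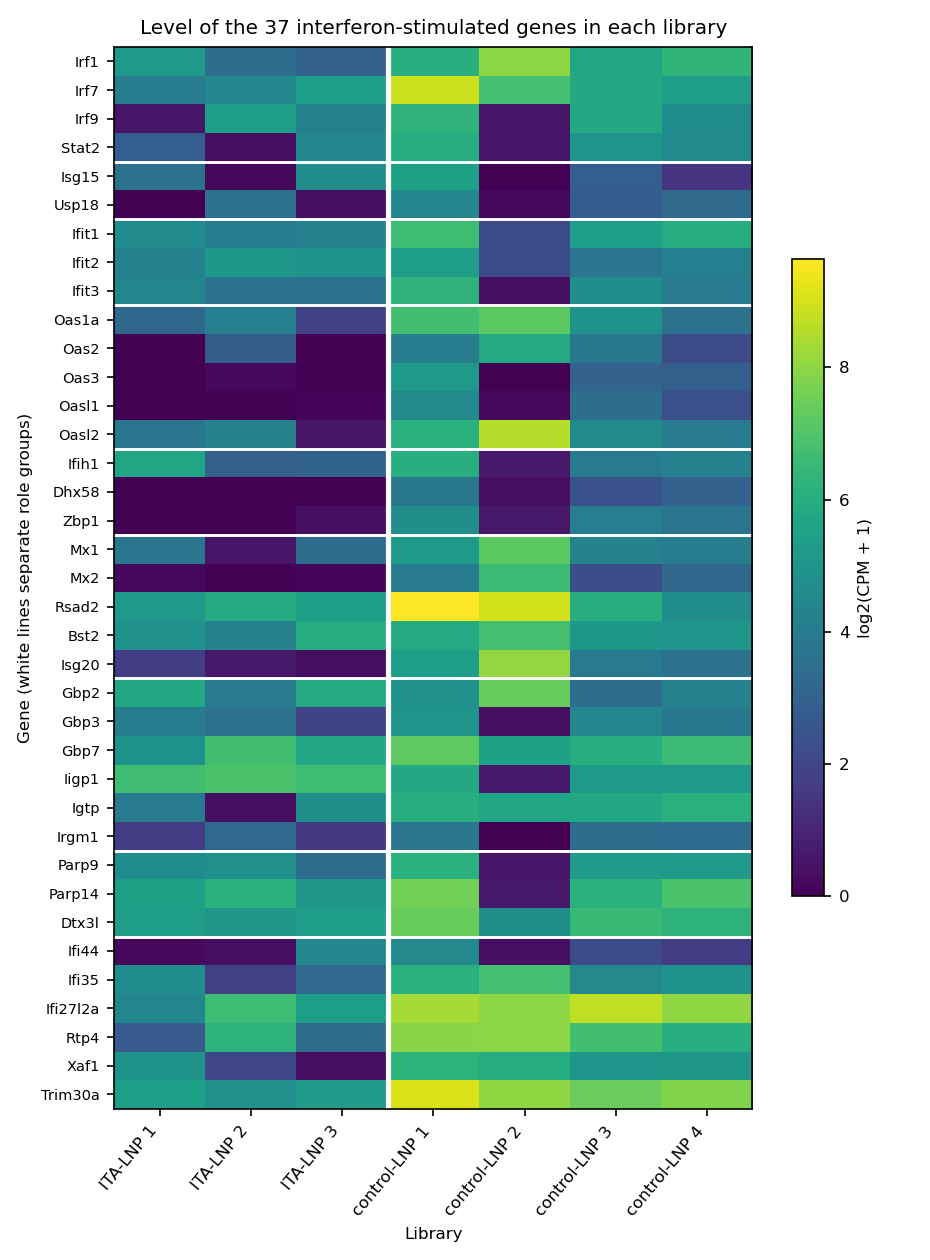
Level of each of the 37 genes in each of the 7 libraries as log2(CPM + 1), in rows ordered by role group and columns by treatment group. Control-LNP replicate 1 is high in most rows, and control-LNP replicate 2 is the highest library in 11 rows and the lowest in 12.

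The count depended on control-LNP replicate 2. In 12 of the 37 genes (32.4%) it held 3 reads or fewer, beside 47.5% of all genes tested. Control-LNP replicates 1, 3 and 4 held more than 3 reads of every member. In 11 others control-LNP replicate 2 was the highest of all 7 libraries. Without it, 11 members were lower (16.0% of all genes tested) and 1 was higher (15.4%). Those lower were Trim30a, Zbp1, Ifi27l2a, Dhx58, Mx2, Oasl1, Oas3, Isg20, Dtx3l, Ifit1 and Irf1, and the higher one was Iigp1. The set's median without that library stood at -2.02, beside -0.31 over all genes, and 34 of 37 values were below 0, beside 57.4% of all genes. Leaving out another library lowered the count of 5 instead, to 2 without ITA-LNP replicate 3 or control-LNP replicate 1, to 3 without ITA-LNP replicate 2 or control-LNP replicate 3 or 4, and to 4 without ITA-LNP replicate 1. Scaling moved these values too: setting each library's median gene level equal shifted the median over all genes by -1.13 and turned the split of all calls from 1306 higher and 651 lower into 741 higher and 1249 lower. Under that scaling the set's median was -3.00, beside -0.98 over all genes.

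**Figure D3:**
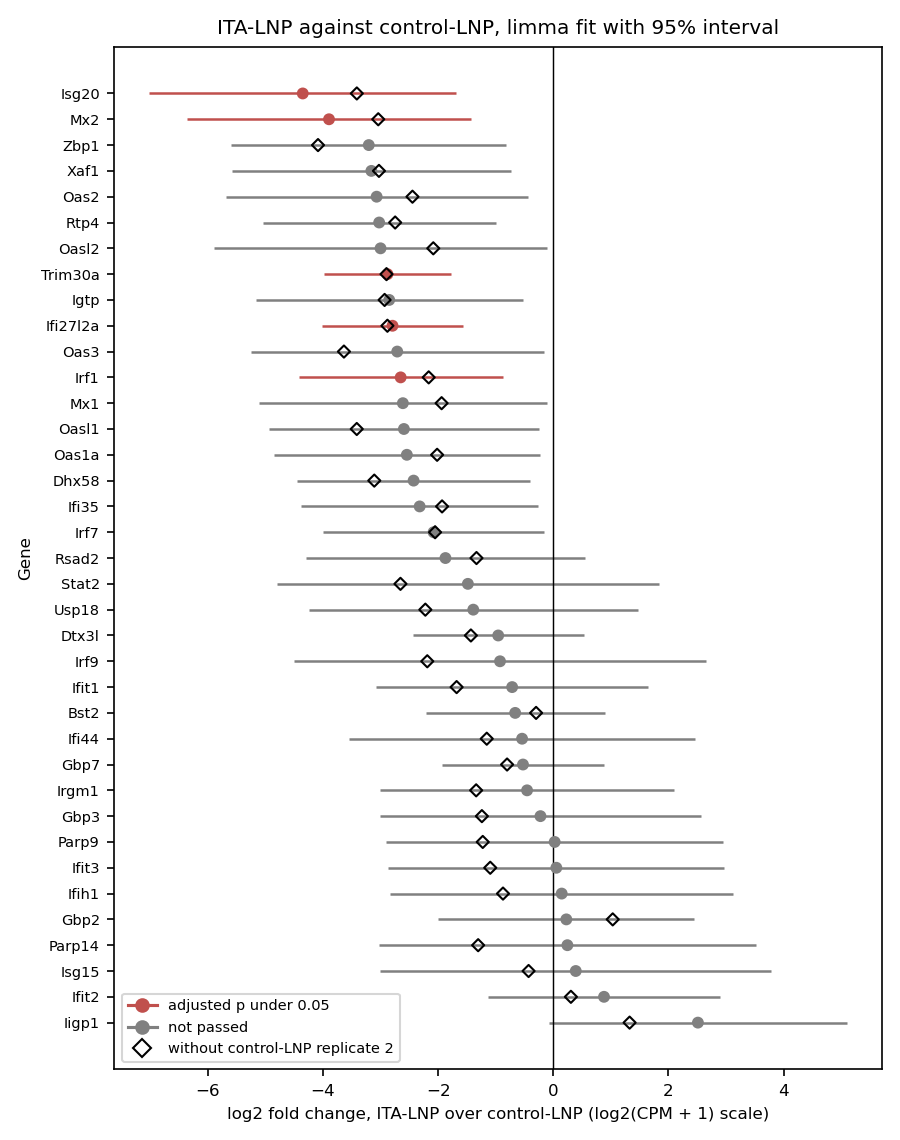
Log2 fold change of each gene, ITA-LNP against control-LNP, on the log2(CPM + 1) scale (x axis), with 95% confidence intervals, in all 7 libraries and without control-LNP replicate 2. Most values lie below 0 in both fits, and Iigp1 lies farthest above 0 in the fit of all 7.

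Counted without a model, 11 members had every control-LNP library above every ITA-LNP library, beside 10.7% of all genes tested. They were Irf1, Oasl1, Dhx58, Zbp1, Mx1, Mx2, Isg20, Igtp, Ifi27l2a, Xaf1 and Trim30a. For 3 of them the separation lay at or near the limit of 3 reads. In control-LNP replicate 2, Oasl1 had 1 read, Dhx58 2 and Zbp1 4. The highest ITA-LNP library had 1, 0 and 2 reads of them, so counting error alone could undo the separation. It could also undo the narrow gaps of Xaf1 and Mx1. Xaf1 was at 28.9 CPM (184 reads) in ITA-LNP replicate 1 and 31.7 CPM (165 reads) in control-LNP replicate 3. Mx1 was at 12.9 CPM (82 reads) in ITA-LNP replicate 1 and 15.9 CPM (97 reads) in control-LNP replicate 4. Only Iigp1 had every ITA-LNP library above every control-LNP library, where 19.1% of all genes did. Leaving out control-LNP replicate 2 raised the lower count to 18, beside 24.6% of all genes.

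The transcription factors of the pathway had 1 gene below the threshold among 4. Irf1 encodes a factor that interferon gamma induces directly. Its level was 35.3, 10.02 and 6.87 CPM with ITA-LNP and 64.0, 252, 54.2 and 77.7 CPM in the control-LNP libraries. The groups did not overlap, and control-LNP replicate 2 was more than 3 times as high as its nearest neighbour. Irf1 fell by 2.65 ± 0.79 (SE) on the log2 scale, with a limma adjusted p of 0.0499 (0.0279 without control-LNP replicate 2). The call was lost in 5 of the 7 fits that left out 1 library each, those without ITA-LNP replicate 2 or 3 or without control-LNP replicate 1, 3 or 4.

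Irf7 encodes the factor that amplifies interferon alpha production and was the most abundant of the 4. With ITA-LNP it reached 15.5, 21.7 and 41.1 CPM, against 476, 111, 55.4 and 40.8 CPM in the control-LNP group. Control-LNP replicate 1 stood far above the rest, while control-LNP replicate 4 was level with the highest ITA-LNP library. Irf7 did not pass, at a log2 fold change of -2.08 ± 0.86 and an adjusted p of 0.141. Exons of Irf7 overlap those of Phrf1 on the other strand, and since the use of strand is not stated, reads from the overlap cannot be assigned to either. The same limit holds for Irf1 (with Gm17334), Usp18, Oasl1, Dhx58, Gbp2 and Ifi35. Irf9 (with Rnf31), Gbp7, Parp14 and Rtp4 overlap another gene on the same strand.

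STAT2 and IRF9 are parts of the complex that binds the ISRE. Stat2 was at 6.27, 0.295 and 20.9 CPM against 63.8, 0.449, 31.0 and 23.8 CPM. Irf9 was at 0.471, 41.0 and 18.0 CPM against 76.6, 0.449, 55.2 and 24.4 CPM. Both genes were highest in control-LNP replicate 1 and nearly absent from control-LNP replicate 2 and from 1 ITA-LNP library each, so the groups overlapped. Neither passed, with log2 fold changes of -1.48 ± 1.48 (adjusted p 0.574) and -0.93 ± 1.60 (adjusted p 0.766). Without control-LNP replicate 2 these were -2.65 ± 1.03 (adjusted p 0.0886) and -2.19 ± 1.17 (adjusted p 0.196).

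ISG15, a ubiquitin-like protein, and USP18, the protease that removes it and also restrains the type I receptor, did not differ between the groups beyond their spread. Isg15 reached 11.3, 0.147 and 25.4 CPM in the ITA-LNP libraries, against 43.1, 0, 6.35 and 1.80 CPM in the control-LNP group. Only control-LNP replicate 1 was above the highest ITA-LNP library, and each group had 1 library at or near 0. The log2 fold change was 0.39 ± 1.51, with a 95% interval from -3.00 to 3.78, and it turned to -0.43 without control-LNP replicate 2 and to -0.74 when library medians were set equal. Usp18 was at 0, 10.9 and 0.275 CPM against 21.1, 0.150, 5.96 and 9.02 CPM, again highest in control-LNP replicate 1. Its log2 fold change was -1.39 ± 1.27 (adjusted p 0.537).

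The IFIT genes encode proteins that bind viral RNA and block translation, and none of the 3 passed in all 7 libraries. Ifit1, the most abundant, was at 24.0, 15.9 and 18.1 CPM against 99.7, 3.44, 41.7 and 60.7 CPM. Control-LNP replicates 1, 3 and 4 were all above the ITA-LNP libraries, and control-LNP replicate 2 was below them. The log2 fold change was -0.71 ± 1.05 (adjusted p 0.721), and without control-LNP replicate 2 it was -1.68 ± 0.43 (adjusted p 0.0203). Ifit2 had a value of the other sign, 0.88 ± 0.90, which did not pass either and was -0.25 with library medians set equal. Ifit3, at 0.05 ± 1.30, has a near-identical copy, Ifit3b, so its reads may be shared.

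The OAS family, whose members make the oligoadenylates that switch on RNase L, or resemble those that do, had a control-LNP mean of summed level 11.0 times the ITA-LNP mean, the largest ratio of the 9 role groups. Without control-LNP replicate 2 the ratio was 5.72, below the 5.87 of the last role group described. None of its 5 genes passed the test in all 7 libraries, although all 5 log2 fold changes were negative, from -2.54 for Oas1a to -3.07 for Oas2. Oasl2, the most abundant, was at 12.9, 17.4 and 0.412 CPM in the ITA-LNP group, against 68.5, 381, 23.3 and 15.3 CPM in the control-LNP libraries. Control-LNP replicate 2 was the highest library for Oas1a, Oas2 and Oasl2, and control-LNP replicate 4 fell below the highest ITA-LNP library. The adjusted p for Oasl2 was 0.156 at a log2 fold change of -3.00 ± 1.29.

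Oas3 and Oasl1 were close to undetected with ITA-LNP. Over the 3 ITA-LNP libraries Oas3 had 1 read and over the 4 control-LNP libraries 254, a ratio of pooled reads over pooled depth of 225 with a counting interval from 40.0 to 8927. Oasl1 had 1 read against 196, a ratio by the same measure of 174 with an interval from 30.8 to 6897. Both were also at 0.150 CPM or less in control-LNP replicate 2, and both fell in the fit without that library, with log2 fold changes of -3.64 (adjusted p 0.00903) and -3.41 (adjusted p 0.00898). Oas1a has a near-identical copy, Oas1g, and its reads may be shared with it.

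Among the nucleic acid sensors, Dhx58 and Zbp1 had almost no reads with ITA-LNP, while Ifih1 was present in both groups. Dhx58 encodes LGP2, which tunes RNA sensing by MDA5. It had no read in the 3 ITA-LNP libraries and 137 reads in the control-LNP libraries, so that it was at least 14.3-fold lower with ITA-LNP (3 reads allowed per library). Zbp1, whose protein binds Z-form nucleic acid, had 2 reads against 297, a ratio of pooled reads over pooled depth of 132 with a counting interval from 36.1 to 1092. In all 7 libraries neither passed, with adjusted p of 0.111 and 0.0761, and both were lower without control-LNP replicate 2 (0.00641 and 0.00231). Ifih1, which encodes MDA5, was at 50.3, 6.48 and 7.28 CPM against 67.4, 0.598, 14.4 and 17.5 CPM. Its groups overlapped and its log2 fold change was 0.15 ± 1.33, with negative values under several alternatives.

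The antiviral effectors held 2 of the 5 calls, all 5 of their log2 fold changes were negative, and their summed level was 6.41 times as high in the control-LNP group (4.36 without control-LNP replicate 2). Isg20, an exonuclease of single-stranded RNA, lies at chr7:78913424-78920396 on mm10. It was at 2.35, 0.589 and 0.275 CPM in the ITA-LNP group, against 41.0, 271, 14.6 and 11.5 CPM in the control-LNP libraries. Every control-LNP library was above every ITA-LNP library, and the range within the control-LNP group was itself wide. Isg20 fell by 4.35 ± 1.19 on the log2 scale (adjusted p 0.0345), and by 3.41 ± 0.78 (adjusted p 0.0122) without control-LNP replicate 2. The call did not hold without any 1 of the 3 ITA-LNP libraries, nor without control-LNP replicate 1 or 3.

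Mx2 is 1 of the 2 mouse genes for dynamin-like GTPases that block viruses, and mm10 lists it as a polymorphic pseudogene at chr16:97535308-97560900. Its level was 0.157, 0 and 0.137 CPM with ITA-LNP against 14.8, 95.4, 4.04 and 8.20 CPM. It was near 0 in all 3 ITA-LNP libraries, with 2 reads in total against 784, a ratio of pooled reads over pooled depth of 347 with a counting interval from 95.9 to 2874. Control-LNP replicate 2 held most of those reads, and without it the control-LNP count was 146 reads and the ratio 91.1, with an interval from 24.8 to 760. Mx2 fell by 3.89 ± 1.10 on the log2 scale (adjusted p 0.0399), and by 3.04 ± 0.65 (adjusted p 0.00892) without control-LNP replicate 2. The call was lost without any 1 ITA-LNP library and without control-LNP replicate 1 or 4.

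Rsad2, the gene for viperin, was the most abundant effector and did not pass. Its level was 35.0, 57.8 and 41.9 CPM with ITA-LNP and 794, 503.5, 67.3 and 25.7 CPM in the control-LNP group. Control-LNP replicates 1 and 2 were far above all others, and control-LNP replicate 4 was the lowest of the 7 libraries. The log2 fold change was -1.87 ± 1.08 (adjusted p 0.293). Mx1 and Bst2, the latter encoding the tetherin that holds budding virions, gave -2.61 and -0.66 and did not pass.

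The interferon-inducible GTPases, which attack the membranes around intracellular microbes, were the role group with the most equal sums: the control-LNP mean was 1.09 times the ITA-LNP mean, with or without control-LNP replicate 2, and the median log2 fold change was -0.34. No gene of the 6 passed in all 7 libraries. Gbp7, the most abundant, was at 30.3, 104 and 54.5 CPM against 152, 45.0, 65.2 and 94.1 CPM, with overlapping groups and a log2 fold change of -0.53 ± 0.63 (adjusted p 0.645). Gbp2 was higher in ITA-LNP replicates 1 and 3 than in control-LNP replicates 1, 3 and 4, but control-LNP replicate 2 exceeded them all at 168 CPM. Its log2 fold change of 0.23 ± 0.99 changed sign when any 1 of 4 libraries was left out. The exons of Igtp overlap those of Irgm2 on the same strand, which makes its value of -2.85 ± 1.03 (adjusted p 0.102) uncertain.

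Iigp1, named here after its values were seen, ran opposite to most of the set. It encodes an immunity-related GTPase that coats the vacuole of intracellular parasites. Its level was 101, 120.0 and 99.4 CPM with ITA-LNP and 54.6, 0.598, 36.9 and 36.2 CPM in the control-LNP libraries. The ITA-LNP libraries agreed closely, at 107 ± 11.5 CPM (SD, n = 3), and all lay above the highest control-LNP library. In all 7 libraries the log2 fold change was 2.51 ± 1.15, with a 95% interval from -0.08 to 5.10 and an adjusted p of 0.183. Without control-LNP replicate 2 the value was 1.32 ± 0.30, which passed at an adjusted p of 0.0111. That it differs from the other members was not tested.

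PARP9, PARP14 and their ubiquitin ligase partner DTX3L modify proteins in interferon signalling. Parp14, the most abundant, was at 43.3, 70.3 and 33.0 CPM in the ITA-LNP group, against 190.1, 0.598, 70.4 and 118 CPM in the control-LNP group. Control-LNP replicates 1 and 4 were above all ITA-LNP libraries, and control-LNP replicate 3 was level with ITA-LNP replicate 2. Control-LNP replicate 2 was nearly without reads of Parp14. The log2 fold change of 0.24 ± 1.46 (adjusted p 0.943) turned to -1.31 ± 0.44 (adjusted p 0.0588) without that library and to -0.88 with library medians set equal. Dtx3l went from -0.96 ± 0.66 (adjusted p 0.389) to -1.43 ± 0.36 (adjusted p 0.0193), and Parp9 from 0.02 to -1.22. Parp9 and Dtx3l overlap on opposite strands, so their reads may be mixed.

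The remaining 6 members held the 2 calls that passed in all 19 alternatives run at that threshold. Trim30a encodes a TRIM protein that restrains Toll-like receptor signalling and lies at chr7:104409025-104465193 on mm10. Its level was 42.8, 28.6 and 38.6 CPM with ITA-LNP and 538, 263, 173 and 226 CPM in the control-LNP libraries. The lowest control-LNP library was well above the highest ITA-LNP library, and the means were 36.7 ± 7.31 (SD, n = 3) and 299.7 ± 163 CPM (SD, n = 4). Trim30a fell by 2.88 ± 0.49 on the log2 scale (adjusted p 0.00336, and 0.000246 to 0.0318 over 19 alternatives). A near-identical gene, Trim30d, may share its reads.

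Ifi27l2a, which encodes a small hydrophobic protein and has a near-identical copy in Ifi27l2b, lies at chr12:103442167-103443680. It was at 20.4, 98.3 and 40.9 CPM in the ITA-LNP group, against 321, 256, 415 and 264 CPM in the control-LNP group. The control-LNP libraries lay close together, replicate 2 included, and the groups did not overlap. Ifi27l2a fell by 2.79 ± 0.54 on the log2 scale (adjusted p 0.00664, and 0.000119 to 0.0426 over 19 alternatives).

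The 4 other members of that group were not past the threshold. Rtp4, a chaperone of membrane receptors, missed it narrowly at -3.02 ± 0.90 (adjusted p 0.0502, and 0.0537 without control-LNP replicate 2). Xaf1, which antagonises an inhibitor of apoptosis, was at -3.16 ± 1.08 (adjusted p 0.0850), with groups separated only by a narrow gap. Ifi35 was at -2.32 ± 0.92 (adjusted p 0.127) and Ifi44 at -0.54 ± 1.34 (adjusted p 0.846).

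Promoter letters and direction were set side by side as a description. Of all genes tested, 5.15% were called lower and 46.4% had a negative log2 fold change. Of the 15 genes with an ISRE core, 1 was called lower and 11 had a negative value, with a median log2 fold change of -0.66. Of the 11 with a window but no ISRE core, 2 were called lower and 10 were negative, with a median of -2.32. The 11 genes with no window in the table included 2 called lower and had a median of -2.61.

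The ligands of the pathway were close to undetected. Of 20 interferon genes in the table, all were at 0 reads in the 3 ITA-LNP libraries and 18 were at 0 in every library, among them Ifnb1 and all the alpha genes listed. Ifnk had 1 read in control-LNP replicate 4. Ifng, the gene for interferon gamma made by T and natural killer cells, was at 4.33, 0, 7.69 and 24.1 CPM in the control-LNP libraries. It had no read with ITA-LNP, which makes it at least 20.5-fold lower there by mean CPM. The limma adjusted p was 0.144 in all 7 libraries and 0.00914 without control-LNP replicate 2. Markers of natural killer cells summed to 1.37 to 2.80 CPM with ITA-LNP and to 619 to 775 CPM in the control-LNP libraries, and those of T cells to 58.0 to 119 against 577 to 1600 CPM. The part of these cells in the Ifng difference was not tested.

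None of the 6 receptor genes passed, and their median log2 fold change was 0.07. Ifnar1, for the type I receptor, was at 24.6, 16.2 and 23.3 CPM against 31.1, 0.150, 16.2 and 25.3 CPM, so that the groups overlapped. Its partner Ifnar2 gave -0.26, Ifngr1 and Ifngr2 of the gamma receptor -1.04 and 1.65, Ifnlr1 0.40 and Il10rb -0.66. The receptors of type I interferon were thus detected in 6 and 7 of the 7 libraries above 3 reads.

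Among the signalling genes downstream of the receptors, Jak1 fell. It was at 237, 171 and 184 CPM in the ITA-LNP group, against 839, 635, 834 and 891 CPM in the control-LNP libraries, with no overlap. Jak1 fell by 2.02 ± 0.27 on the log2 scale (adjusted p 0.00106). Jak2 was at -1.26 ± 0.44 (adjusted p 0.0932, and 0.0191 without control-LNP replicate 2), Tyk2 at 0.11 and Stat3 at 0.07, and none of these 3 passed in all 7 libraries.

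The counts of the lists below stand beside 5.15% of all genes called lower and 10.3% called higher. Of 7 inhibitors of the pathway, 1 fell: Ptpn6, the leukocyte phosphatase SHP-1, at -4.33 ± 0.93 (adjusted p 0.0107). Of 15 tested genes for upstream sensing and induction, 2 fell, Irf8, a factor of myeloid and B cells, at -3.03 ± 0.47 (adjusted p 0.00216), and Aim2, a sensor of cytosolic DNA, at -4.03 ± 0.88 (adjusted p 0.0115). Without control-LNP replicate 2 the inhibitors had 1 gene lower and 2 higher (Socs3 and Ptpn2), and the upstream genes 8 lower and none higher. In that fit 16.0% of all genes were called lower and 15.4% higher.

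A longer list of 80 other interferon-induced genes had 75 in the table and 68 tested, of which 16 fell and none rose, with a median of -1.21, beside 0.15 over all genes. Without control-LNP replicate 2, 27 fell and 2 rose (Ifitm2 and Ly6a), beside 16.0% of all genes called lower and 15.4% higher. The 4 with the smallest p were Ly6e at -2.88 ± 0.31 (adjusted p 0.000346), Nlrc5 at -6.16 ± 0.75 (0.000676), Slfn1 at -6.57 ± 0.83 (0.000838) and Samhd1 at -2.24 ± 0.33 (0.00166). NLRC5 is the activator of MHC class I genes. Of 18 MHC class I and peptide-loading genes, 6 fell and none rose, with a median of -1.17. Without control-LNP replicate 2, 10 fell and 3 rose (Calr, Canx and Pdia3). H2-Q7 had the smallest p, at -2.76 ± 0.35 (adjusted p 0.000798).

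Most blood cell markers moved with these genes. The 6 pan-leukocyte markers summed to 308 to 362 CPM with ITA-LNP and to 3658 to 5001 CPM in the control-LNP libraries, and 5 of the 6 fell. B cell markers summed to 43.1 to 223 against 2232 to 4715 CPM over 9 genes, monocyte markers to 349 to 412 against 950 to 1493 CPM over 9, and neutrophil markers to 46.0 to 87.1 against 955 to 27132 CPM over 8. Of the 9 monocyte markers, 7 had a negative log2 fold change. Without control-LNP replicate 2, 7 of them fell and 2 rose, beside 16.0% of all genes called lower and 15.4% higher. Macrophage markers ran the other way, at 535 to 690 against 69.2 to 137 CPM over 10, and 6 of the 10 rose. The 5 markers of plasmacytoid dendritic cells, the main source of interferon alpha, summed to 27.9 to 61.5 against 0.748 to 167 CPM, with none past the threshold and Klk1 at 0 in the 3 ITA-LNP libraries. The set's ratio between the control-LNP and ITA-LNP means was 3.48 (3.22 without control-LNP replicate 2). The same ratio follows for the marker lists, with the value without that library in brackets. It was 355 (343) for the natural killer, 141 (59.0) for the neutrophil and 80.8 (78.0) for the platelet list. For the B cell list it was 24.3 (27.5) and for the pan-leukocyte list 13.7 (14.5). The T cell list stood at 11.7 (13.6) and the erythroid list at 6.21 (6.34). The monocyte list stood at 3.02 (2.99) and the plasmacytoid dendritic cell list at 2.40 (3.20). The part of cell makeup in the fall of Trim30a, Ifi27l2a, Isg20, Mx2 and Irf1 was not tested.

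**Figure D4:**
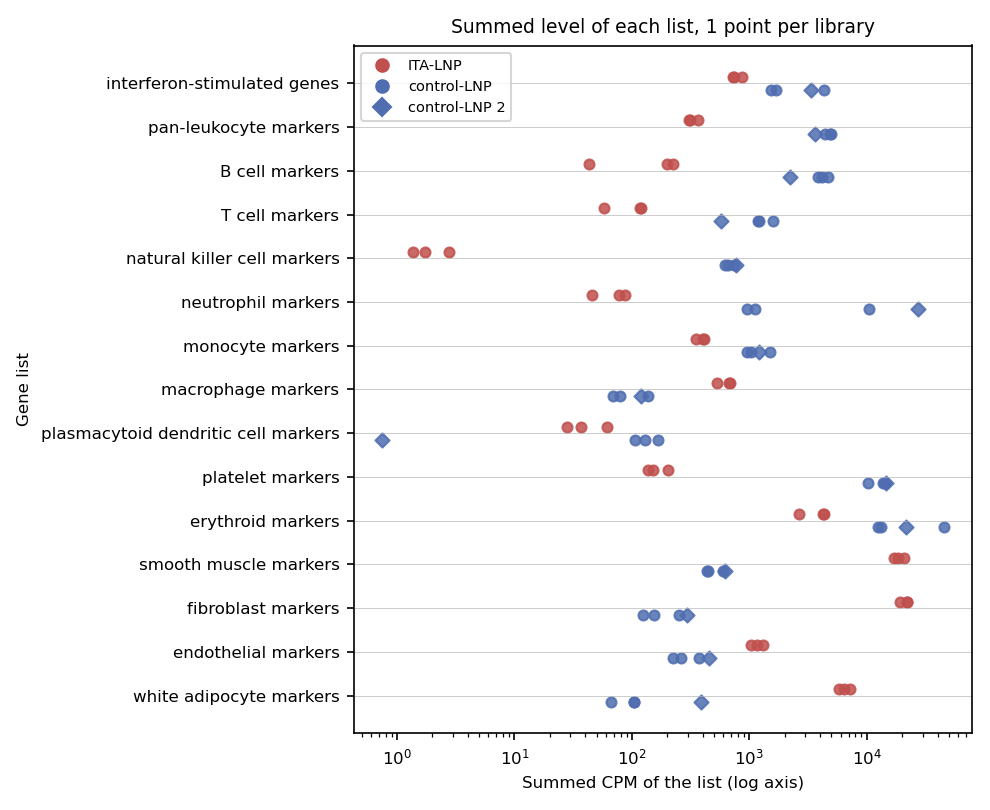
Summed CPM of the 37 interferon-stimulated genes and of the marker lists in each library, on a log axis, with 1 point per library. The set sums to 727 to 868 CPM with ITA-LNP and 1525 to 4293 CPM with control-LNP, while the smooth muscle and platelet sums differ far more and in opposite directions.

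Within the control-LNP group the set varied more than other genes, and replicate 1 was raised across it. Compared with the mean log2(CPM + 1) of control-LNP replicates 3 and 4, replicate 1 was higher by a median of 1.16 over the 37 genes, beside 0.22 over all genes tested, whose 10th to 90th percentiles ran from -0.59 to 1.03. It was above both other libraries in 34 of the 37, beside 49.2% of all genes. The exceptions were Irf1, Igtp and Ifi27l2a. The difference was over 1 on the log2 scale in 26 of 37, beside 10.7% of all genes. Replicate 1 is a single library, so these values have no replicate check.

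The role groups shared that pattern unevenly. Rsad2 was 17.1 times, Isg15 10.6 times and Irf7 9.89 times as high in replicate 1 as the mean CPM of replicates 3 and 4. Ifi44 followed at 7.55 times, Oas3 at 5.10 times and Oas1a at 5.04 times. All 5 OAS genes were more than 1 higher on the log2 scale, with a median of 1.81, whereas 1 of the 6 GTPases was, with a median of 0.67. The 68 other interferon-induced genes tested had a median of 0.75, with 53 above both libraries. The MHC class I list stood at 0.13.

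**Figure D5:**
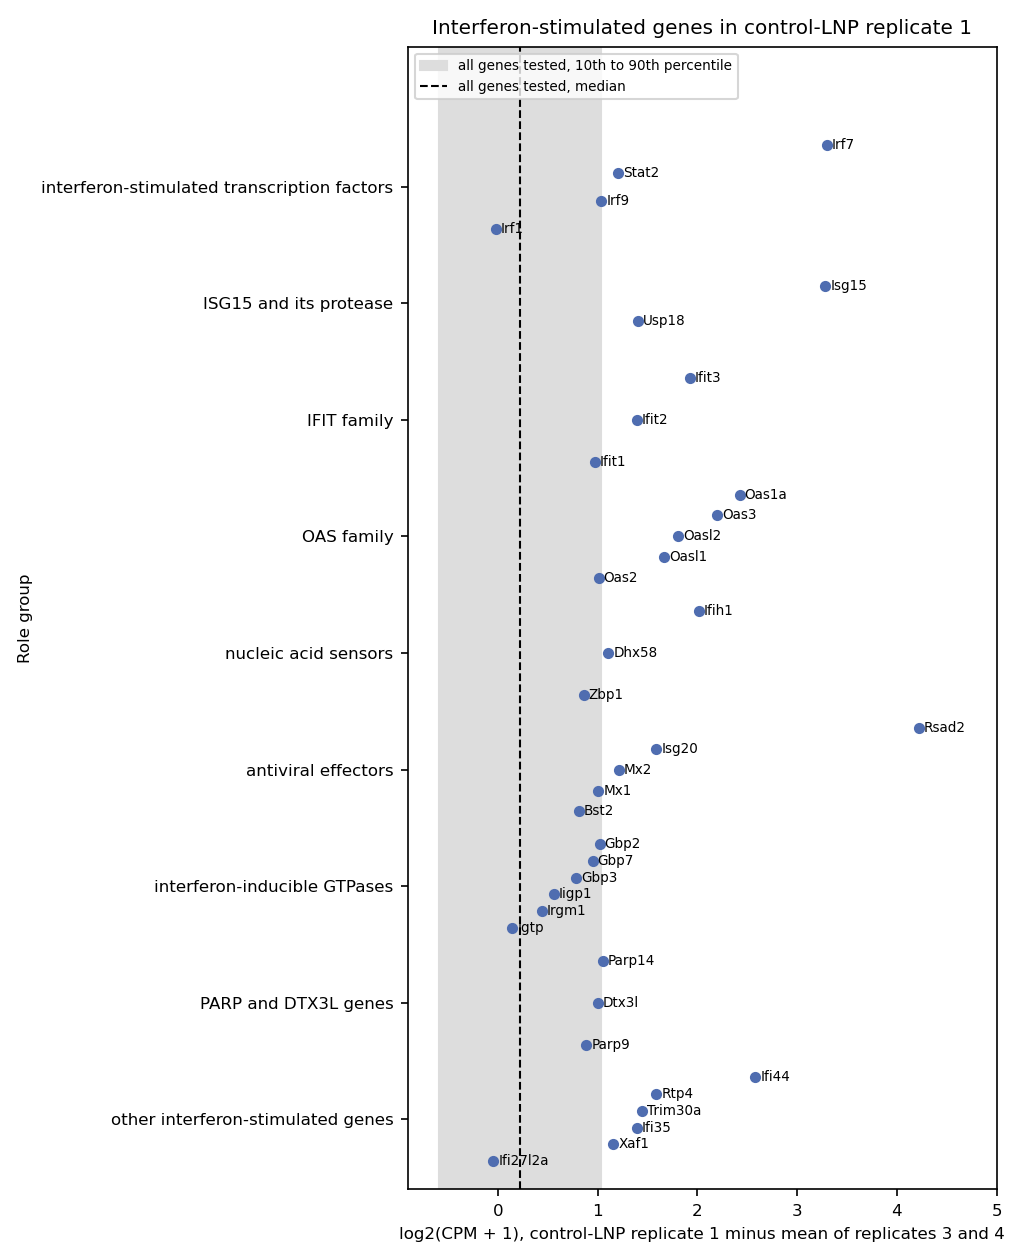
Difference in log2(CPM + 1) between control-LNP replicate 1 and the mean of control-LNP replicates 3 and 4 for each of the 37 genes (x axis), by role group, with the median and the 10th to 90th percentile band of all genes tested. Rsad2, Irf7 and Isg15 lie farthest to the right, and the GTPases lie inside or at the edge of the band.

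Other lists in replicate 1 are given beside this. Erythroid markers had a median difference of 2.67, with 8 of 8 over 1, and neutrophil markers of -1.63. Monocyte markers stood at 0.58, plasmacytoid dendritic cell markers at 0.72, pan-leukocyte markers at 0.29, B cell markers at -0.02 and T cell markers at -0.18. Their part in the higher levels of Rsad2, Irf7 and the OAS genes was not tested. The median SD of the 37 genes on the log2 scale was 0.96 in the ITA-LNP group and 1.78 in the control-LNP group, or 0.82 without control-LNP replicate 2, beside 0.84, 1.30 and 0.39 over all genes.

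Many members were near the limit of detection in 1 group. With ITA-LNP, 9, 10 and 10 of the 37 genes had 3 reads or fewer, beside 13.4%, 20.9% and 19.2% of all genes tested. In the control-LNP libraries the counts were 0, 12, 0 and 0, beside 5.99%, 47.5%, 8.87% and 7.48%. For such genes the log2(CPM + 1) scale understates the fold change, and a difference in level was not detectable where both groups were near the floor.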

How the data were processed

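The members and gene lists were chosen with earlier results of these data known. Total RNA (500 ng) went into QuantSeq 3' mRNA libraries, per the labels' protocols, and the submitters' processing notes name the build mm10. For the aligner, the counter, strand and molecular identifiers, the sources used here give nothing. The authors deposited 1 table of log10 values for 32544 genes and 7 libraries. Each column of 10 to the power of the value, less 1, sums to 1000000, so the deposited values were read as log10(CPM + 1). All nonzero CPM were whole multiples of 1 read per library within 0.01, which gave depth. The design had assumed log2 CPM, so values were converted to log2(CPM + 1).

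Genes with a mean log2(CPM + 1) of at least 1 were tested (12636, all 37 members among them) with limma-trend (limma 3.58.1, R 4.3.3), ITA-LNP against control-LNP, with Benjamini-Hochberg adjustment over all genes tested. Fold changes are on the log2(CPM + 1) scale with SE, and negative means lower with ITA-LNP. Count intervals are 95% and cover counting error only. The procedure was tested on simulated data with the same spread for all genes. The simulation had no outlying library and no difference in tissue makeup, so it does not cover these features of the data. Alternatives covered filter, pseudocount, scaling, variance model, voom on recovered reads, replicate block and leaving out each library. Centring without control-LNP replicate 2 was chosen after seeing the data.

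Values in every library are given for the 3 called members with the largest change in each direction, the most abundant of each role group, and Stat2, Irf7, Irf9, Isg15 and Usp18. Irf1 and Iigp1 were added after their values were seen. Pathway lists have up to 4 genes named by smallest p, besides the ligands, receptors, Jak1, Jak2 and Tyk2. A gene that the rule also names is not reported here. Coordinates are from GENCODE M21 and promoters from RefSeq on GRCm38.p6. Python 3.11.15, pandas 2.3.3, numpy 2.4.6, scipy 1.17.1 and matplotlib 3.10.9 were used.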

Additional observations from a re-analysis of the deposited data

Results flagged for a closer look

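In 9 of the 38 control-LNP values tested (the 37 genes and their sum), 1 library stood far from the other 3, by Dixon's ratio at its 95% limit. Chance marks about 1 in 20 groups where values are normal and groups independent. Here the ratio was taken on CPM and the 38 groups share the same libraries, so 9 cannot be judged against that rate. Control-LNP replicate 2 was the distant library for Irf1 (252 CPM, next 77.7), Oasl2 (381, next 68.5), Mx1 (146, next 35.3), Mx2 (95.4, next 14.8), Isg20 (271, next 41.0) and Gbp2 (168, next 28.0). Control-LNP replicate 1 was the distant library for Irf7 (476 CPM, next 110.8), Isg15 (43.1, next 6.35) and Ifi44 (22.5, next 3.65). All 9 were high values on the CPM scale, on which a low value is less readily marked. The cause was not tested.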

How the results depend on the processing

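Tissue makeup cannot be told apart from the groups under any alternative. Of 734 alternative values of single members, 606 kept direction and side of the threshold, 47 passed newly, 31 no longer passed and 50 changed sign. The cause was not tested. Trim30a and Ifi27l2a passed in all 19 alternatives at 0.05, Mx2 in 10 (adjusted p 0.00500 to 0.123), Isg20 in 9 (0.00777 to 0.119) and Irf1 in 7 (0.00419 to 0.169).

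Members lower, 5 in the fit of all 7 libraries, became 2 without a filter, 16 with quantile normalization, 12 with sample weights, 3 with voom, 8 at an adjusted p of 0.1, 13 with median centring without control-LNP replicate 2 (chosen after seeing the data), and 2 to 11 when 1 library was left out. Members higher, none there, became 1 with quantile normalization, 1 with sample weights, 1 with that centring and 0 to 1 when 1 library was left out. All genes higher (1306) and lower (651) became 741 and 1249 with median centring, 2100 and 2243 with sample weights, 1614 and 1401 with quantile normalization, and 1777 and 2548 with centring without control-LNP replicate 2. Leaving out 1 library gave 984 to 1988 higher and 401 to 2065 lower, with the highest counts without control-LNP replicate 2 and with 411 and 401 lower without control-LNP replicates 3 and 4.

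With the replicate number as a block, 2 members were lower, and 738 genes were higher and 322 lower. Same-numbered libraries did not deviate together (correlations of deviations 0.011, -0.011 and -0.023), and not every library correlated best with its own number. With so few libraries this cannot exclude a litter, batch or day shared by number, and no label says what the numbers mark. Under the block Gbp2 was -0.030.

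Signs changed in log2 fold changes as follows, all in members not called except Parp14 where stated. Median centring gave Isg15 -0.74, Ifit2 -0.25, Ifit3 -1.08, Ifih1 -0.98, Gbp2 -0.90, Parp9 -1.11 and Parp14 -0.88. Quantile normalization gave Ifit2 -0.15, Ifit3 -0.99, Ifih1 -0.71, Parp9 -1.25 and Parp14 -0.95. A pseudocount of 4 gave Ifit3 -0.22, Ifih1 -0.031, Parp9 -0.23 and Parp14 -0.074. Sample weights gave Ifit3 -0.52, Ifih1 -0.35, Parp9 -1.002 and Parp14 -1.27. Voom gave Gbp3 0.14 and Irgm1 0.22. Centring without control-LNP replicate 2 gave Isg15 -0.67, Ifit3 -1.33, Ifih1 -1.11, Parp9 -1.46 and Parp14 -1.54 (adjusted p 0.0221). Leaving out 1 library gave ranges that crossed 0 for Irf9 (-2.19 to 0.50), Isg15 (-0.55 to 1.71), Ifit3 (-1.09 to 0.86), Ifih1 (-0.87 to 0.93), Gbp2 (-0.28 to 1.03), Gbp3 (-1.24 to 0.40), Parp9 (-1.22 to 0.64), Parp14 (-1.31 to 1.00) and Ifi44 (-1.93 to 0.24).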

Other observations

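Some interferon-induced genes outside the set, chosen here after their values were seen, did not follow its direction or its size. Ifitm1, for a protein that blocks viral entry, was at 0.157, 0.147 and 0.549 CPM in the ITA-LNP group, against 25.4, 277, 94.2 and 17.2 CPM in the control-LNP libraries, and fell by 5.55 ± 1.08 on the log2 scale (limma adjusted p 0.00670). Its paralog Ifitm2 was at 46.7, 48.9 and 43.1 CPM against 13.4, 49.8, 16.9 and 15.3 CPM. For Ifitm2 the log2 fold change came to 1.14 ± 0.69 (adjusted p 0.316), and without control-LNP replicate 2 to 1.55 ± 0.38 (adjusted p 0.0161). Ifit1bl1, a relative of Ifit1, had no read with ITA-LNP and was at 27.0, 0, 23.8 and 23.3 CPM in the control-LNP group, at least 42.0-fold lower with ITA-LNP (3 reads allowed per library). Socs3, a feedback inhibitor of cytokine signalling, was at 105, 59.7 and 47.4 CPM against 11.0, 163, 22.3 and 15.1 CPM. Its log2 fold change was 1.21 ± 0.92 (adjusted p 0.441), and 2.04 ± 0.46 (adjusted p 0.0117) without control-LNP replicate 2.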
